A study of Zea mays with 4 samples.

Results

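The crown root of maize (Zea mays, cultivar Zhengdan 958) was set against 3 roots of embryonic origin by the levels of their miRNAs. Each library was small RNA from root tips of 1 cm: the crown root (CR) at 15 days after germination, the early primary root (PRY) at 3 days, the seminal root (SR) at 7 days and the later primary root (PRO) at 15 days. All seedlings were untreated and grew in Hoagland's solution. The CR, PRY and SR roots were about 3 to 5 cm long, and the length of the PRO roots was not stated. Each group had 1 library. Of the 576 miRNA entries listed, the 103 that reached 10 RPM (reads per 1000000 reads of the library total) in any library were used. They were 89 known miRNAs and 14 candidate miRNAs, and 86 entries remained when identical entries of a family and arm were counted once. For each entry the CR level was placed above, below or inside the range of PRY, SR and PRO.

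Primary and seminal roots of a cereal are laid down in the embryo, whereas crown roots arise after germination from nodes of the shoot and come to make up most of the root system. A plant miRNA is cut from a hairpin precursor. One arm, either 5p or 3p, usually gives the mature strand that guides cleavage or repression of target transcripts, and the other arm gives the star strand. Many target families are transcription factors that set the timing of growth phases, the response to auxin and the patterning of meristems.

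The library totals recovered from the values were 10920069 reads in CR and 10721082 to 11572637 reads in the embryonic roots, so 1 read was worth 0.0916 RPM in CR. The 3 embryonic libraries differ in root type and age and are no replicates of each other. Their range is therefore not a replicate error, nothing could be tested across replicates, and p-values are left out. An exact permutation of 1 library against 3 could not go below p = 0.25. The 95% intervals beside ratios of libraries are exact conditional binomial intervals and cover counting error only, because each group had 1 library. Reads amplified without molecular identifiers cannot be counted as separate molecules, so these intervals may be too narrow even for counting error. CR shares its age with PRO alone, so shoot-borne origin cannot be told apart from age against PRY and SR. A lower level can also come from fewer cells that make a miRNA or from less of it per cell, and these cannot be told apart in tips. The files hold no mRNA markers against which the root types could be checked. The families that trigger phased siRNAs in reproductive tissue were nearly absent: the reads over all entries of miR2118 were 0 in CR, 0 in PRY, 0 in SR and 2 in PRO, and those of miR2275 were 0 in CR, 2 in PRY, 0 in SR and 0 in PRO.

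CR lay inside the embryonic range for 61 of the 103 entries (59.2% of entries), below it for 26 (25.2%) and above it for 16 (15.5%). The distance was small in most cases. Only 11 entries lay 2-fold or more below the lowest embryonic root (10.7%), and they belonged to miR156 and miR528. Only 1 entry, a candidate, lay 2-fold or more above the highest (0.971%). The 2-fold mark was a difference of 1 in log2(RPM + 1), a scale that understates ratios of low entries. The interval of the ratio to the nearest embryonic library excluded 1 for 20 of the 26 entries below the range and for 10 of the 16 above it. Where a ratio could be formed, entries below the range were 1.03-fold to 2.58-fold outside it, with a median of 1.91-fold, and entries above it 1.05-fold to 1.53-fold, with a median of 1.21-fold. These places rest on the authors' library totals. Among known families outside the range, only miR156 (apart from miR156j-5p), miR528 and miR164 kept their place in all 5 scalings tried.

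**Figure D1:**
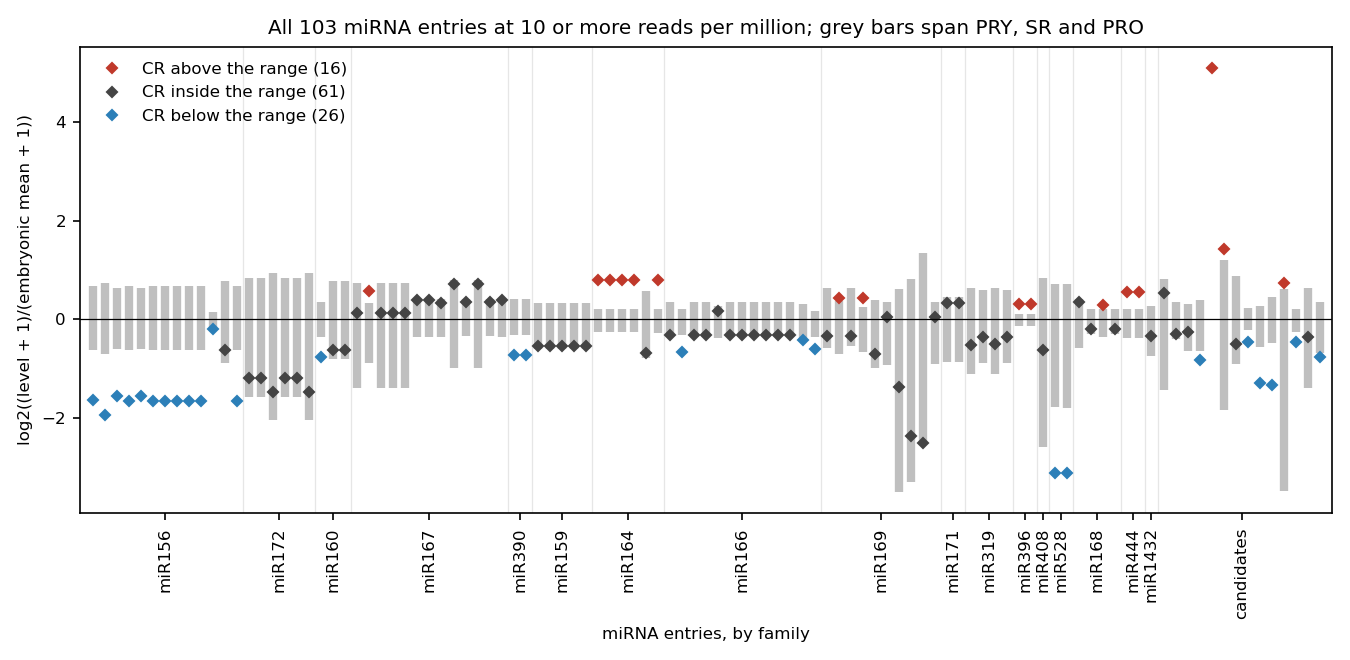
Level of each of the 103 entries relative to its embryonic mean, as log2((level + 1)/(embryonic mean + 1)), by family; diamonds are CR and grey bars span PRY, SR and PRO. Of the diamonds, 16 lie above their bar, 61 on it and 26 below it, and the miR156 and miR528 entries lie farthest below.

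The phase change families held 12 of the 26 entries below the range and 9 of the 11 past the 2-fold mark. miR156 represses SPL transcription factors and is known for holding plants in the juvenile phase, and miR172 represses AP2-like factors and acts later in the same pathway. Of the 19 entries of this list, 12 were below the range, 0 above and 7 inside, against 25.2% of all entries below. The median log2 ratio of CR to the embryonic mean was -1.55 over the list and -0.34 over all 103 entries.

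The most abundant miR156 entry, miR156d-5p, stood at 4576 RPM in CR, against 20801 RPM in PRY, 8807 RPM in SR and 10527 RPM in PRO. The crown root was lowest, and its nearest neighbour was the seminal root. The level was 1.92-fold below that of SR (1.90 to 1.95) and 2.92-fold below the embryonic mean. miR156a-5p stood at 4099 RPM in CR, against 8308 RPM in SR and 9686 RPM in PRO, and lay 2.03-fold below SR (2.00 to 2.05). Entries c, e, f, g, h, i and l of the family had nearly the same values as miR156a-5p, and they made up most of the entries past the 2-fold mark. That mark therefore passes between near-equal members of 1 family, with miR156b-5p and miR156d-5p just short of it.

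The star strand miR156b-3p followed its mature strand. It had 6.59 RPM in CR (72 reads), against 47.6 RPM in PRY, 20.3 RPM in SR and 17.0 RPM in PRO. Its distance to the lowest embryonic root, PRO, was 2.58-fold (1.96 to 3.43), the largest of any entry below the range. Not every miR156 member was low. miR156j-5p differed by 1.03-fold from the nearest root, with an interval of 0.90 to 1.17 that includes 1, and turned to above the range with the distinct miRNA total. miR156k-5p, named after its values were seen, was inside the range with 1163 RPM in CR, 966 RPM in PRY, 1332 RPM in SR and 3040 RPM in PRO.

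All 6 entries of miR172 lay inside the range, against 59.2% of all entries, and toward its low end. miR172a stood at 24.6 RPM in CR, against 18.5 RPM in PRY, 50.2 RPM in SR and 102.9 RPM in PRO. The crown root was thus 1.33-fold above PRY (1.11 to 1.61) and well short of PRO, the root of its own age. The star strand miR172d-5p showed the same order, with 4.21 RPM in CR, 2.52 RPM in PRY, 11.0 RPM in SR and 26.8 RPM in PRO. CR was thus low for miR156 without being high for miR172.

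**Figure D2:**
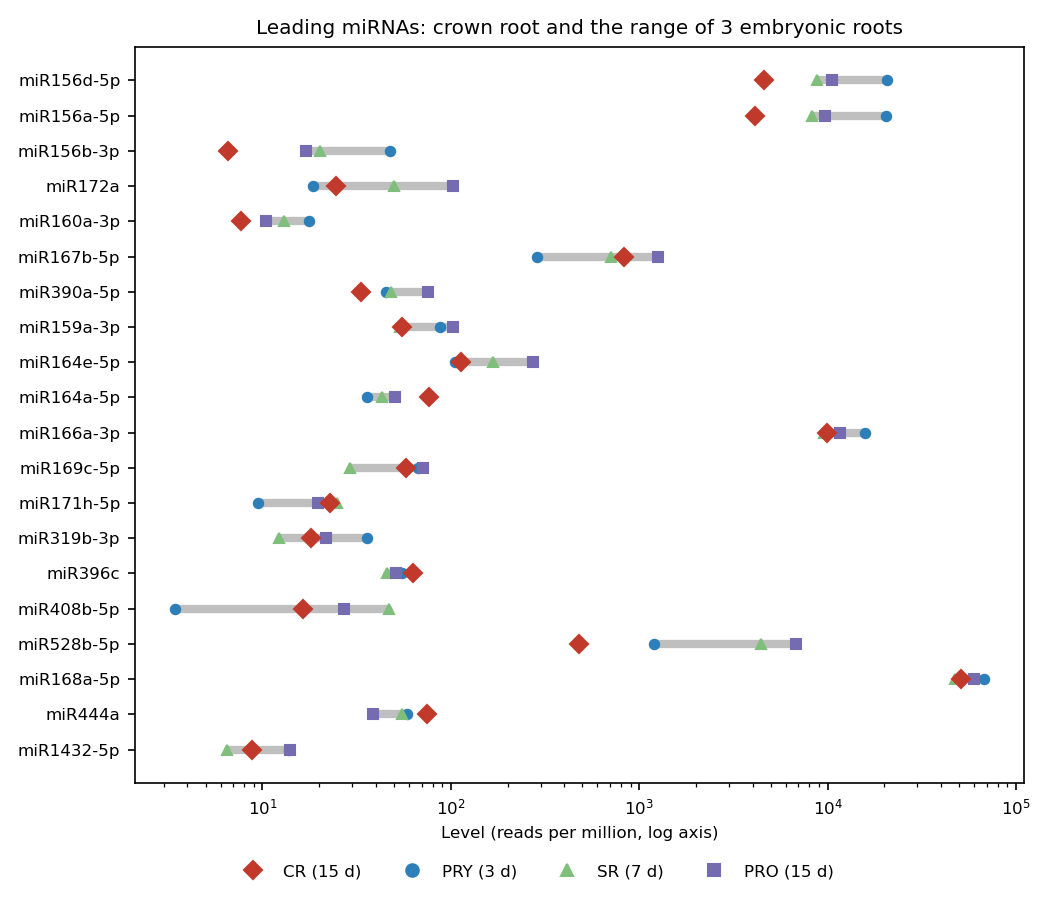
Levels in RPM on a log axis of the highest entry of each family and of miR156a-5p, miR156b-3p and miR164a-5p; red diamonds are CR, other symbols the embryonic libraries, and grey bars their range. CR lies left of the bar for miR156, miR160a-3p, miR390a-5p and miR528b-5p, and right of it for miR164a-5p, miR396c and miR444a.

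In the copper-responsive list, which holds miRNAs that repress transcripts of copper proteins, 2 of 3 entries were below the range, against 25.2% of all entries, and 1 was inside. Both entries below belonged to miR528. miR528 is a monocot family with targets among copper oxidases and laccases. miR528b-5p stood at 479 RPM in CR, against 1203 RPM in PRY, 4439 RPM in SR and 6830 RPM in PRO. The crown root lay 2.51-fold below PRY (2.43 to 2.59) and 8.68-fold below the embryonic mean. miR528a-5p, with 475 RPM in CR, carried nearly the same values, so the family is close to a single measurement. On the log2(RPM + 1) scale miR528b-5p and miR528a-5p differed from the embryonic mean by -3.11 and -3.12, the lowest values among the 103 entries. Since the embryonic roots themselves spread between 1203 and 6830 RPM, the distance from the mean owes much to SR and PRO.

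miR408b-5p, the 5p product of a family that represses plantacyanin and laccases, was inside the range with 16.4 RPM in CR, 3.45 RPM in PRY, 46.8 RPM in SR and 27.1 RPM in PRO. It did not share the place of miR528: CR was 4.75-fold above PRY for this entry (3.32 to 6.96). The entries miR408b-3p and miR408a, given after their values were seen, stayed under 10 RPM and were lowest in CR, as miR528 was. On few reads, miR408b-3p had 25 in CR, 29 in PRY, 35 in SR and 41 in PRO. miR408a had 26 in CR, 30 in PRY, 35 in SR and 43 in PRO. The entries of miR397 and miR398 also stayed under 10 RPM. The highest miR398 entry had 0.366 RPM in CR, against 0.187 RPM in PRY, 1.47 RPM in SR and 2.26 RPM in PRO.

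Among the auxin signalling families, 14 of 18 entries were inside the range, 3 below and 1 above, against 59.2%, 25.2% and 15.5% of all entries, and the median log2 ratio to the embryonic mean was 0.24. miR390 sets off trans-acting siRNAs that act on auxin response factors. miR390a-5p stood at 33.5 RPM in CR, against 45.1 RPM in PRY, 48.2 RPM in SR and 75.4 RPM in PRO, and miR390b-5p had equal values. CR was the lowest library, 1.35-fold below PRY (1.17 to 1.55), but it came inside the range in 3 of the 5 scalings. miR160 represses another set of auxin response factors. Its star strand miR160a-3p was 1.36-fold below PRO (1.02 to 1.83), and came inside the range with the distinct miRNA total, with 7.69 RPM in CR, 17.7 RPM in PRY, 13.0 RPM in SR and 10.5 RPM in PRO. The star strands miR160b-3p and miR160g-3p, given after their values were seen, were inside the range. Both had 5.49 RPM in CR, 16.1 RPM in PRY, 6.05 RPM in SR and 4.70 RPM in PRO. The 5p entries of miR160 stayed under 10 RPM, and miR160a-5p had 6 reads in CR, 33 in PRY, 7 in SR and 37 in PRO.

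miR167, which represses auxin response factors of the ARF6 and ARF8 class, had 12 of 13 entries inside the range, against 59.2% of all entries. miR167b-5p stood at 826 RPM in CR, against 288 RPM in PRY, 709 RPM in SR and 1258 RPM in PRO. CR was 1.17-fold above SR (1.13 to 1.20), between SR and PRO. The 5p entries e to j lay nearer to the high end. miR167e-5p, named after its values were seen, had 631 RPM in CR, 377 RPM in PRY, 422 RPM in SR and 648 RPM in PRO, within counting error of PRO (ratio 0.97, 0.94 to 1.01). The 5p entries a to d kept their place in all 5 scalings, while the 5p entries e to j and both 3p entries inside the range turned to above it in 3 of the 5. The star strand miR167h-3p had another order, with 176 RPM in CR, 185 RPM in PRY, 81.0 RPM in SR and 53.3 RPM in PRO. CR and PRY could not be separated there (ratio 0.95, 0.89 to 1.01), while SR and PRO were lower. miR167b-3p was the entry above the range, 1.21-fold over PRO, with an interval of 0.96 to 1.53 that includes 1. miR393, which represses auxin receptors, stayed under 10 RPM, and its highest entry had 3.57 RPM in CR, against 1.87 RPM in PRY, 2.07 RPM in SR and 3.44 RPM in PRO.

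The meristem and patterning list had 9 of 42 entries above the range, 3 below and 30 inside, against 15.5%, 25.2% and 59.2% of all entries, and its median log2 ratio was -0.31, close to that of all entries. Of the 9, 5 were mature strands of miR164, which represses NAC transcription factors of organ boundaries and root branching. miR164a-5p stood at 76.2 RPM in CR, against 35.7 RPM in PRY, 43.3 RPM in SR and 50.3 RPM in PRO. The crown root was highest, 1.52-fold above PRO (1.36 to 1.69) and 1.77-fold above the embryonic mean, and entries b, c, d and g were nearly equal to it. The most abundant entry of the family, miR164e-5p, did not share this place. It stood at 113 RPM in CR, against 105 RPM in PRY, 168 RPM in SR and 273 RPM in PRO, inside the range and within counting error of PRY (ratio 1.07, 0.98 to 1.16).

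miR396c and miR396d, of a family that represses growth-regulating factors, were also highest in CR, except with TMM factors. miR396c stood at 62.8 RPM in CR, against 54.8 RPM in PRY, 45.8 RPM in SR and 51.1 RPM in PRO, 1.15-fold above PRY (1.03 to 1.28), and miR396d had equal values. The entries miR396a-3p and miR396b-3p, given after their values were seen, stayed under 10 RPM and were inside the range. Both had 30 reads in CR, 85 in PRY, 38 in SR and 25 in PRO. The other 2 entries above the range, though inside it with TMM factors, belonged to miR169, which represses NF-YA subunits. miR169a-5p had 20.3 RPM in CR, against 19.4 RPM in PRY, 8.73 RPM in SR and 16.0 RPM in PRO. Its interval against PRY included 1 (ratio 1.05, 0.86 to 1.27), as did that of miR169b-5p against PRO (1.15, 0.92 to 1.43). The most abundant entry, miR169c-5p, was inside, with 57.6 RPM in CR, 66.8 RPM in PRY, 29.1 RPM in SR and 71.6 RPM in PRO.

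Several 3p strands of miR169 were low in CR and lower still in SR, which kept CR inside the range. An example named after its values were seen is miR169k-3p, with 2.56 RPM in CR, 31.4 RPM in PRY, 0.864 RPM in SR and 19.9 RPM in PRO. miR169o-5p had 0 reads in CR and 0 in PRO, against 143 reads in PRY and 7 in SR, and was counted as inside because of that tie.

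miR166, which represses class III HD-ZIP factors of organ polarity and vascular patterning, had 10 of 13 entries inside the range, against 59.2% of all entries. miR166a-3p stood at 9969 RPM in CR, against 15878 RPM in PRY, 9618 RPM in SR and 11684 RPM in PRO, and the crown root was next to the seminal root, 1.04-fold above it (1.03 to 1.05). The place of miR166a-3p turned to above the range with the distinct miRNA total and to below it with TMM factors. The 3 entries below the range were miR166l-3p, miR166m-3p and miR166a-5p, at 1.03-fold, 1.21-fold and 1.32-fold, and none of them stayed below with the distinct miRNA total. The interval excluded 1 for miR166m-3p only (1.01 to 1.45), with 20.2 RPM in CR, 35.3 RPM in PRY, 24.5 RPM in SR and 34.5 RPM in PRO. These 3 were named after their values were seen.

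The remaining families of the list were inside. miR159a-3p, which represses GAMYB-like factors, had 55.4 RPM in CR, 87.1 RPM in PRY, 53.6 RPM in SR and 103.3 RPM in PRO. CR and SR formed the low pair there, with a ratio of 1.03 (0.92 to 1.16). miR319b-3p, which represses TCP factors, had 18.0 RPM in CR, 35.8 RPM in PRY, 12.2 RPM in SR and 21.7 RPM in PRO. miR171h-5p, a 5p product of the family that represses GRAS factors, had 22.9 RPM in CR, 9.42 RPM in PRY, 24.9 RPM in SR and 19.7 RPM in PRO, and its intervals against both SR and PRO included 1.

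In the small RNA machinery list, 3 of 4 entries were inside the range and 1 was above, against 59.2% and 15.5% of all entries. Of these, miR168a-5p and miR168b-5p had equal values. miR168a-5p, which represses the transcript of AGO1 and led every library, stood at 51319 RPM in CR, between SR at 47529 RPM and PRO at 60102 RPM, and was inside the range with the library total alone. The star strand miR168b-3p was highest in CR, with 67.5 RPM, against 64.0 RPM in PRY, 42.9 RPM in SR and 58.5 RPM in PRO, but its interval against PRY included 1 (ratio 1.05, 0.95 to 1.17), and it came inside with TMM factors. miR162, which represses the transcript of DCL1, stayed under 10 RPM in all libraries.

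Of the 3 entries of the monocot list, 2 were above the range and 1 inside, against 15.5% and 59.2% of all entries. Both above were entries of miR444, which came inside with TMM factors, and the entry inside was miR1432-5p. miR444, which represses MADS-box factors, is tied in rice to nitrate-dependent root growth. miR444a stood at 74.7 RPM in CR, against 58.5 RPM in PRY, 55.0 RPM in SR and 38.7 RPM in PRO, 1.28-fold above PRY (1.15 to 1.42) and 1.47-fold above the embryonic mean. miR444b had equal values. miR1432-5p had 8.79 RPM in CR, 13.9 RPM in PRY, 6.48 RPM in SR and 13.9 RPM in PRO.

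The nutrient families had no entry at 10 RPM. The sulfate family miR395 was higher in the 15-day roots than in the younger ones: miR395a-3p, given as an example after its values were seen, had 47 reads in CR, against 1 in PRY, 1 in SR and 62 in PRO. For the phosphate family miR399, the reads summed over its 20 entries, which count shared reads repeatedly, were 67 in CR, 6 in PRY, 10 in SR and 27 in PRO. miR827-3p had 38 reads in CR, 45 in PRY, 27 in SR and 78 in PRO.

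Of the 14 candidate miRNAs, 3 were above the range, 6 below and 5 inside, against 15.5%, 25.2% and 59.2% of all entries. One candidate was listed at 33.2 RPM in CR (363 reads) and at 0 in PRY, SR and PRO. No fold is given against these zeros. Candidates were often listed in 1 library, 156 of 255 of them against 32 of 321 known miRNAs, and it is not stated in the sources used here whether a 0 means no read or no prediction in that library. The other 2 candidates above the range had intervals that included 1. Farthest below the range was a candidate at 11.0 RPM in CR, against 40.1 RPM in PRY, 20.7 RPM in SR and 26.5 RPM in PRO, 1.89-fold under SR (1.51 to 2.37). Another was 1.69-fold under PRO (1.37 to 2.09), with 13.3 RPM in CR, 41.2 RPM in PRY, 37.6 RPM in SR and 22.4 RPM in PRO. The most abundant candidate was inside, at 1122 RPM in CR, 286 RPM in PRY, 669 RPM in SR and 1365 RPM in PRO.

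At the minimum itself, the lowest known entry to be used was miR166a-5p, with 6.04 RPM in CR, 11.8 RPM in PRY, 7.95 RPM in SR and 10.5 RPM in PRO. The highest known entry left out was miR169j-3p, with 2.38 RPM in CR, 9.61 RPM in PRY, 1.64 RPM in SR and 3.71 RPM in PRO. CR lay below the range for miR166a-5p and inside it for miR169j-3p. A candidate just under the minimum had 9.98 RPM in CR, 9.14 RPM in PRY, 9.42 RPM in SR and 7.51 RPM in PRO.

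Across the 103 entries CR was not the most extreme library. It was the highest of the 4 libraries for 16 entries, against 48 for PRY, 6 for SR and 33 for PRO. It was the lowest for 26 entries, against 30 for PRY, 38 for SR and 7 for PRO. The median absolute log2 ratio of CR was 0.74 to PRY, 0.57 to SR and 0.48 to PRO, and those among the embryonic libraries were 0.91 between PRY and SR, 0.70 between PRY and PRO and 0.49 between SR and PRO. By this measure CR was nearest to PRO, the root of its age. By entries 2-fold or more apart it was nearest to SR, with 25 entries, against 30 to PRO and 42 to PRY. CR was lower than PRO in 74 entries and higher in 28, and higher than SR in 62 and lower in 41.

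The range also rested on single libraries. Without SR, 54 entries were below the range instead of 26 and 31 inside instead of 61, and without PRO, 27 were above instead of 16. Without PRY, the median log2 ratio was -0.10 instead of -0.34, and 3 entries instead of 1 lay 2-fold or more above. Without PRO this last count was 2.

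The place of CR depended on how libraries were scaled. The miRNA content of the libraries differed: the values summed over distinct entries, which count reads shared between similar entries repeatedly, came to 17.5% of the library total in CR, against 36.6% in PRY, 20.8% in SR and 25.9% in PRO. Without miR156 these sums were 14.0% in CR, 20.1% in PRY, 13.9% in SR and 17.7% in PRO. With the distinct miRNA total as scale, 49 entries were above the range and 15 below, with TMM factors 6 and 56, and with DESeq2 size factors or the miRNA total without miR156, 31 and 19. CR was the high side in 38.1% of the outside calls with the library total, 76.6% with the miRNA total, 9.68% with TMM factors and 62.0% with each of the others.

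In all 5 scalings 6 of the 16 entries above the range kept their place, namely the 5 entries of miR164 and the candidate listed in CR alone. The place of this candidate was fixed in advance, because a scaling leaves a 0 unchanged. Of the 26 below, 15 kept it: 11 entries of miR156, both of miR528 and 2 candidates. Of the 61 inside, 17 kept it, with all 6 of miR172, miR164e-5p, miR156k-5p, miR408b-5p and 4 mature strands of miR167 among them. miR169o-5p, also among the 17, could not move because it had 0 reads in CR and in PRO. The places of miR166, miR168, miR390, miR396, miR444, miR159, miR319, miR171, miR160 and miR1432 changed in at least 1 scaling, as did those of 9 of the 13 entries of miR167 and 7 of the 10 of miR169. The 11 entries past the 2-fold mark stayed below the range in all 5. None passed that mark with the miRNA total, with DESeq2 factors or without miR156. The mark is set on log2(RPM + 1), which understates the plain ratio of a low entry such as miR156b-3p.

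**Figure D3:**
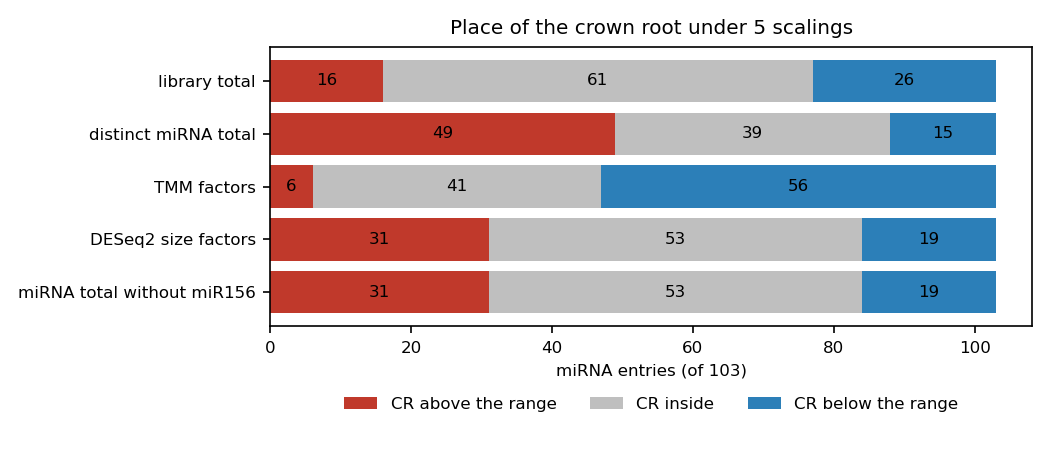
Number of the 103 entries with CR above, inside or below the embryonic range under each of 5 scalings of the libraries. The number above the range runs from 6 with TMM factors to 49 with the distinct miRNA total.

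Ratios within a library do not depend on its scaling, and 2 kinds were compared. The first was the ratio of 5p to 3p reads of a hairpin with both products at the minimum. CR was outside the embryonic range for 9 of 13 hairpins, 5 above and 4 below. Of these 9, only miR166c, miR168b and miR169c had a CR interval that overlapped none of the others. The hairpins inside were miR167h and miR167i, with nearly the same ratios, and miR172b and miR172d, likewise. For miR167h and miR167i the CR interval also overlapped none of the others. The ratio of miR167h in CR, 3.41 (3.24 to 3.59), lay between 2.02 in PRY and 5.13 in SR. For miR166c the ratio of 3p to 5p was 412 in CR (365 to 467), against 608 in PRY, 589 in SR and 536 in PRO (472 to 611). Since reads of a mature strand can be shared by several hairpins of a family, these ratios are not specific to 1 precursor.

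For all 3 hairpins of miR169 with both products at the minimum the ratio was highest in CR. Only that of miR169c was separated from PRO, the root of the same age. Where a product stayed under 10 RPM, the order was not always kept. The ratio was highest in SR for miR169i, with 53 5p and 53 3p reads in CR and 24 and 4 in SR. It was also highest in SR for miR169k, with 52 and 28 reads in CR and 24 and 10 in SR. For miR169j it was highest in CR, with 50 and 26 reads. For miR169c the ratio of 5p to 3p was 3.86 in CR (3.24 to 4.61), against 2.25 in PRY (1.97 to 2.58), 2.41 in SR (1.97 to 2.95) and 2.17 in PRO (1.91 to 2.46), and the CR interval overlapped none of the others. For miR169a it was 2.41 in CR (1.88 to 3.11) and 1.11 in PRY, 1.25 in SR and 1.95 in PRO, and there the interval overlapped that of PRO (1.50 to 2.53). For miR169b it was 1.96 in CR (1.51 to 2.54), 0.815 in PRY, 1.00 in SR and 1.79 in PRO (1.37 to 2.34), again overlapping PRO.

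miR168 went the other way, with relatively more star strand in CR. For miR168b the ratio of 5p to 3p was 760 in CR (707 to 818), against 1056 in PRY (980 to 1140), 1109 in SR (1015 to 1213) and 1027 in PRO (951 to 1111). The CR interval lay under all the others. For miR168a the ratio was 2278 in CR, and its upper limit of 2592 overlapped the interval of PRY (2550 to 3279). For miR156b the ratio was 694 in CR (551 to 887), 437 in PRY, 434 in SR and 619 in PRO (537 to 718), so CR and PRO could not be separated.

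The second kind was the ratio between entries of a family, for pairs chosen after their values were seen. Similar entries may share reads, so no interval is given. miR164a-5p stood at 67.6% of miR164e-5p in CR, against 33.9% in PRY, 25.7% in SR and 18.4% in PRO. The crown root lay above the other 3 libraries in this pair. miR156j-5p stood at 0.987% of miR156d-5p in CR, against 0.223% in PRY, 0.578% in SR and 0.542% in PRO. miR156k-5p stood at 25.4% of miR156d-5p in CR, inside the range set by 4.64% in PRY and 28.9% in PRO. miR167e-5p stood at 76.4% of miR167b-5p in CR, also inside, between 131% in PRY and 51.5% in PRO.

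**Figure D4:**
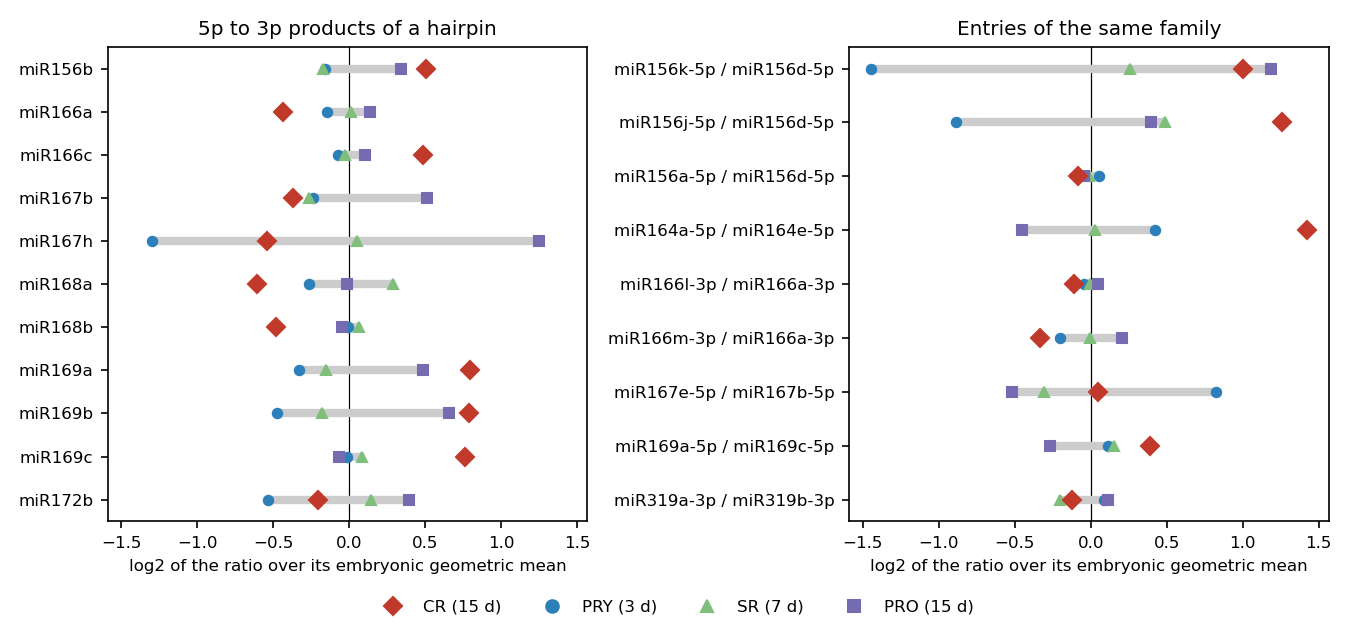
Ratio of 5p to 3p reads (left) and of 2 entries of a family (right) in each library, as log2 over the geometric mean of the 3 embryonic ratios; red diamonds are CR and grey bars span PRY, SR and PRO. On the left, CR lies outside the bar for miR156b, miR167b and the hairpins of miR166, miR168 and miR169, and inside it for miR167h and miR172b. On the right, it lies inside for the pairs that start with miR156k-5p, miR167e-5p and miR319a-3p, and outside for the others.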

How the data were processed

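The deposited table held 1 value per miRNA and library in RPM, that is reads for each 1000000 of a library's reads, as scaled by the authors. The header says TPM. Per the labels' protocols, the gel-purified RNA measured 18 to 30 nt, adapters were ligated, PCR ran for 18 cycles and an Illumina/Solexa instrument was used for sequencing. No source used here names the aligner, the miRNA release or the predictor of candidates. The values of a library moved in steps of a fixed size, so reads were recovered: 100% of values were whole within 0.01 read, assuming the step is 1 read.

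The members and lists were chosen with earlier results of these data known. Named miRNAs were the highest entry of each family, the highest of both arms for selected families, and the 10 known entries farthest on each side of the range. The prefix of the species and the authors' names of candidates are left out. Identical entries were found within a family and arm label.

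Of the calls, only those at 2-fold were checked on simulated data. In these data the embryonic libraries shared a common mean and the planted shifts exceeded 2-fold. Smaller distances, and a spread among the embryonic roots, were not checked in this way. The interval of a ratio was checked apart, on simulated pairs of counts with counting error alone. With 1 library per group there was no spread to estimate, and a count test could not be fitted. TMM factors came from edgeR 4.0.16 and size factors from DESeq2 1.42.0 in R 4.3.3. Other steps used Python 3.11.15, pandas 2.3.3, numpy 2.4.6, scipy 1.17.1 and matplotlib 3.10.9. No miRNA sequences were used here.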

Additional observations from a re-analysis of the deposited data

How the results depend on the processing

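The median log2 ratio moved most with scaling, and the counts above, below and inside the range moved with scaling and with the minimum. With the distinct miRNA total they were 49, 15 and 39, with 6 entries 2-fold or more above, 0 below, and a median that turned to 0.32. With TMM factors 6 were above and 56 below, with a median of -0.68. With DESeq2 size factors and with the miRNA total without miR156, 31 were above and 0 were 2-fold or more below, with medians of -0.057 and -0.024. No minimum gave 128 above, 62 below and 311 inside, with 14 entries 2-fold or more above and a median of -0.21. A minimum of 50 RPM gave 10, 16 and 38, with 0 entries 2-fold or more above. The highest entry per family and arm gave 6, 12 and 22, with 3 entries 2-fold or more below. The minimum and the choice of entries changed how many entries were counted. Shares moved too: without a minimum more entries were above the range than below it, the reverse of the order at 10 RPM. Of known miRNAs, 0 were 2-fold or more above. Beyond counting error 10 entries were above.

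Leaving out each embryonic library in turn gave 18 to 27 above, 30 to 54 below, 31 to 46 inside, 1 to 3 entries 2-fold or more above, 12 to 16 below, and medians of -0.48 to -0.10. Counting identical entries once (13, 23 and 50) and a pseudocount of 10 (10 entries 2-fold or more below) changed none of these by over 1.5 times. Among the 39 named miRNAs, the ratios of miR396c and miR168b-3p to the embryonic mean turned to -0.095 and -0.092 with TMM factors. Including entries inside the range, the sign of this ratio changed for 6 with TMM factors, 5 with the distinct miRNA total, 1 with DESeq2 factors, 1 without miR156, 2 without PRY and 2 without SR. The cause of the shifts with scaling was not tested. No paired analysis was possible because each group had 1 library. Entries near 10 RPM rest on about 100 reads, where counting error alone spans the smaller distances.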
